A study of Homo sapiens with 18 samples.

Results

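The dual-specificity phosphatases of MAP kinases described here are the 10 genes DUSP1, DUSP2, DUSP4, DUSP5, DUSP6, DUSP7, DUSP8, DUSP10, DUSP14 and DUSP16. They were matched by symbol to their Ensembl gene identifiers among the 62649 genes of the count files, and all 10 were found. Their mRNA was measured by RNA sequencing in wild-type cells of A549, a lung carcinoma line of alveolar epithelial type, and BEAS-2B, an immortalised bronchial epithelial line. Cells were plated on porous inserts 24 h ahead, 400000 of A549 or 500000 of BEAS-2B, and then met the aerosol directly, at an air-liquid interface, during 4 h. Each line received complete wood smoke, wood smoke that had been filtered, or clean air as the control, which made 6 groups of 3 libraries and 18 libraries in all. The series title sets the carbonyl compounds of the gas phase as its question, and the filtered aerosol is the group that bears on it. Each line is a single established line. The labels do not say if the 3 libraries of each group stem from separate cultures. The p-values therefore weigh differences against a spread among libraries that may be technical. The lines were also kept in different media, their libraries carry different styles of sample name, and their depths do not overlap. Line, medium and any batch therefore cannot be told apart.

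MAP kinases (ERK, JNK and p38) are switched on when a MAP kinase kinase phosphorylates a threonine and a tyrosine in their activation loop, and the phosphatases of this family switch them off by removing both phosphates. Several family members are themselves transcribed in response to MAP kinase signalling, so that they act as negative feedback. In airway and alveolar epithelium ERK, JNK and p38 respond to growth factors, oxidants and electrophiles. DUSP1, DUSP2, DUSP4 and DUSP5 are nuclear and inducible. DUSP6 and DUSP7 are cytoplasmic and act on ERK. DUSP8, DUSP10 and DUSP16 act mainly on JNK and p38, and DUSP14 is a small member that lacks the kinase-docking domain of the others.

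Many of these genes are known for promoters that respond to signalling, so the 250 bases before the annotated start were read from RefSeq (GRCh38.p14). The 4 windows shown hold no exon and carry 1 of 2 motifs of factors that signalling activates. RefSeq windows were matched for 8 of the 10 members, with 9 windows in all, and DUSP4 and DUSP5 were not matched. Capitals mark the cAMP response element TGACGTCA and its core TGACG in DUSP1 and DUSP8, and the EGR letters GCGNGGGCG in DUSP2 and DUSP16, each searched on both strands. Each full element holds the core once on either strand, and these matches are counted as cores too.
DUSP1, chr5:172771196-172771445, minus strand: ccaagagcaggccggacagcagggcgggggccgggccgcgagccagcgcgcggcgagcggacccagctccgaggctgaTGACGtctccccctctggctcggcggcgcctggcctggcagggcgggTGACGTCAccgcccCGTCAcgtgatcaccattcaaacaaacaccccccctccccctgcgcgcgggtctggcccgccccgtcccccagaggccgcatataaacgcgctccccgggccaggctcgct
DUSP8, chr11:1572272-1572521, minus strand: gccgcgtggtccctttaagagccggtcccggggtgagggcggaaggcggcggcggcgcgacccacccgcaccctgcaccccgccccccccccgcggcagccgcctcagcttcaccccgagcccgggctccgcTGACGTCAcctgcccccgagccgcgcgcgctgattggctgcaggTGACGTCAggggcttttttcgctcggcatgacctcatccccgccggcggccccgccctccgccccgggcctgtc
DUSP2, chr2:96145441-96145690, minus strand: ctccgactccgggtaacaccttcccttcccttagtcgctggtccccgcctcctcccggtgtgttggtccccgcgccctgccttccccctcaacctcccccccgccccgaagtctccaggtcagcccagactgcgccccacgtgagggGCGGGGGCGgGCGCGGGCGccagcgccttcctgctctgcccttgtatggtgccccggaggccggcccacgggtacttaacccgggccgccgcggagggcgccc
DUSP16, chr12:12562864-12563113, minus strand: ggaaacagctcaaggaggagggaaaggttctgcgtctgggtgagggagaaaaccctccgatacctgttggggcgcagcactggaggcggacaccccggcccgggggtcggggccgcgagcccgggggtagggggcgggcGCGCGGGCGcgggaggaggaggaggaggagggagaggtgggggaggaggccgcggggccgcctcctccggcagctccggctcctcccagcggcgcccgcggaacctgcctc

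The full cAMP response element was present once in the DUSP1 window and at 2 places in the DUSP8 window, and 1.634% of all 34941 promoter windows of this length held it. DUSP1 held 4 core matches and DUSP8 also 4, against 21.18% of all windows with at least 1. The EGR letters occurred in the windows of DUSP2, DUSP16 and DUSP14, against 8.383% of all windows. The antioxidant response element letters TGACNNNGC occurred in 1 of 9 windows, that of DUSP1, against 10.91% of all windows. That match lies on the opposite strand and overlaps a marked core. No member window held the AP-1 letters TGANTCA (6.591% of all windows), the ETS letters CCGGAAG (8.48%), the serum response element core CArG (1.165%) or the heat shock letters GAANNTTC (5.798%). The GC box GGGCGG was in 8 of the 9 windows and in 42.55% of all, and the E box CACGTG in 2 of 9 and in 6.322% of all. Of the 9 windows 2 belong to DUSP10. G and C made up 74% to 82.8% of the windows of DUSP1, DUSP2, DUSP7, DUSP8, DUSP14 and DUSP16. The windows of DUSP6 and DUSP10 held 55.2% to 57.2%, and the median of all windows was 58.0%. The part of this content in the matches of the GC box and the EGR letters was not tested. These matches describe letters in the windows. All 250 bases of the DUSP6 window are annotated as exon, so the sequence before that gene was not searched for any of these motifs. The EGR letters were shared by DUSP2, DUSP14 and DUSP16, the E box by DUSP1 and DUSP2, and the cAMP response element by DUSP1 and DUSP8; their values are given with each member.

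The libraries held 14438397 to 21432089 gene counts in A549 cells and 28532235 to 55032499 in BEAS-2B cells. Reads that mapped to several places took 7.69% to 12.9% of reads in 16 of the 18 libraries, 31.7% in complete smoke library 3 of BEAS-2B cells and 19.2% in filtered smoke library 3 of BEAS-2B cells. Keratins 8 and 18, epithelial markers, were abundant in both lines. In clean air A549 cells 1 of 7 alveolar type 2 markers was above 1 CPM (the lipid transporter ABCA3, 36.2 ± 6.21 CPM, SD, n = 3), and SFTPB, SFTPA1 and NKX2-1 were at 0 in all 3 libraries. BEAS-2B cells carried all 4 basal airway markers above 1 CPM (KRT5 at 111 ± 12.2 CPM, n = 3), and also the mesenchymal collagen gene COL1A1 at 746 ± 230.1 CPM. The basal marker TP63 was at 15.3 ± 2.11 CPM in clean air A549 and 9.21 ± 3.91 CPM in clean air BEAS-2B cells. Of 4 secretory and ciliated airway markers, MUC5B and MUC5AC were at 118 ± 36.8 and 26.7 ± 8.56 CPM in clean air A549 cells. In clean air BEAS-2B cells they were at 0.294 ± 0.111 and 1.83 ± 0.418 CPM. SCGB1A1 and FOXJ1 were below 1 CPM in clean air in both lines. The summed level of the 4 mesenchymal markers ranged from 742 to 979 CPM in clean air A549 libraries and from 1084 to 1810 CPM in the exposed ones, and from 2656 to 3049 CPM and 3982 to 7180 CPM in BEAS-2B cells. Most of that sum is VIM, whose means were 869, 1358 and 1515 CPM in A549 cells and 2093, 5189 and 5938 CPM in BEAS-2B cells (clean air, complete, filtered). The means of COL1A1 went the other way, at 29.7, 16.3 and 9.80 CPM and 746, 362 and 411 CPM, as did those of PDGFRB, at 0.357, 0.139 and 0.159 CPM and 30.4, 5.56 and 7.96 CPM. The part of these markers in the results below was not tested. The summed level of the 4 leukocyte markers was at most 0.297 CPM in any library. CD3E was at 0 in all 18 libraries, LYZ was at 0 in all BEAS-2B libraries, and PTPRC in all clean air A549 libraries. In bulk samples fewer cells of a type and less RNA per cell cannot be told apart.

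In clean air A549 cells held more mRNA of 6 members than BEAS-2B cells and less of 2. DUSP4, a nuclear phosphatase of ERK and JNK, differed most among the members that passed: its mean level was 6.42 times as high in A549 cells. DUSP6 was 4.22 times, DUSP1 3.88 times and DUSP5 2.04 times as high in A549 cells, while DUSP7 was 2.97 times and DUSP14 2.19 times as high in BEAS-2B cells. Levels are given as CPM, the counts of a gene scaled to a common library total with TMM factors of all 18 libraries, and differences are log2 values from edgeR and pass where the p-value adjusted over all genes (Benjamini-Hochberg) is under 0.05. Of all genes tested 55.4% passed in this comparison, 27.3% higher and 28.0% lower in BEAS-2B cells, so 8 of 10 members passing, 2 higher and 6 lower, is a count to be read against that share. The groups did not overlap for 9 of the members, against 67.5% of all genes. The median log2 difference was -0.88 over the members and 0.01 over all genes tested.

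The DUSP4 gene (ENSG00000120875, chr8:29333064-29350668, minus strand, GRCh38) stood at 289, 326 and 296 CPM in clean air A549 libraries and at 45.4, 53.6 and 42.8 CPM in those of BEAS-2B cells. All 3 A549 values were far above all 3 BEAS-2B values. The log2 difference, BEAS-2B minus A549, was -2.68 ± 0.26 (SE, n = 3 per group; edgeR adjusted p = 2.13e-07). For DUSP6 it was -2.08 ± 0.30 (edgeR adjusted p = 1.54e-05), for DUSP1 -1.96 ± 0.22 (edgeR adjusted p = 1e-06) and for DUSP5 -1.03 ± 0.26 (edgeR adjusted p = 0.00274). These 4 members are either nuclear and inducible or, for DUSP6, directed at ERK in the cytoplasm. DUSP7, the close relative of DUSP6, went the other way with 1.57 ± 0.21 (edgeR adjusted p = 9.49e-06), as did DUSP14 with 1.13 ± 0.22 (edgeR adjusted p = 0.000284). DUSP10 and DUSP16, which act on JNK and p38, were lower in BEAS-2B cells by log2 differences of -0.74 ± 0.24 and -1.42 ± 0.54 (edgeR adjusted p = 0.0151 and 0.0343). Those last calls were lost when single clean air libraries were left out, 3 of 6 times for DUSP10 (A549 library 2 or 3 or BEAS-2B library 3; adjusted p up to 0.0841) and 4 of 6 for DUSP16 (A549 library 2 or 3 or BEAS-2B library 1 or 3; up to 0.162). The DUSP16 call was also lost with library size alone (adjusted p = 0.0519), and that of DUSP10 with no low-count filter (0.0524). DUSP2 and DUSP8 did not pass, at 1.81 ± 0.79 and 0.46 ± 0.39 (edgeR adjusted p = 0.0619 and 0.334), though DUSP2 passed with no low-count filter (0.0278).

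Per kilobase of exon, the level of DUSP1 was the highest of the 10 in every group, at 77.5 ± 4.97 CPM per kb in clean air A549 cells and 20.0 ± 4.44 in clean air BEAS-2B cells (SD, n = 3). In A549 cells DUSP4 came second at 41.8 ± 2.71 and DUSP5 next at 12.8 ± 0.855 CPM per kb. None of these 3 overlapped its neighbour. DUSP10 and DUSP6 followed with overlapping values (4.78 ± 0.375 and 3.64 ± 0.718), and so did DUSP7, DUSP14 and DUSP16 further down. DUSP8 and DUSP2 were the lowest at 0.142 ± 0.0626 and 0.0333 ± 0.0177 CPM per kb. In clean air BEAS-2B cells DUSP4 (6.51 ± 0.778) and DUSP7 (5.00 ± 0.169) each overlapped DUSP5 (6.29 ± 2.06), while DUSP4 lay above DUSP7 without overlap. DUSP6 was at place 7 there, with 0.863 ± 0.370 CPM per kb. After smoke the order changed at DUSP2, DUSP4, DUSP5 and DUSP6, among others. DUSP2 went from the last place in clean air to place 8 in A549 cells under complete smoke (0.713 ± 0.412 CPM per kb), place 7 under filtered smoke (1.53 ± 0.694) and place 8 in BEAS-2B cells under both aerosols (1.45 ± 0.289 under filtered smoke). In A549 cells under filtered smoke DUSP4 at 25.7 ± 1.20 CPM per kb overlapped DUSP5 at 23.9 ± 5.74. In BEAS-2B cells under filtered smoke DUSP5 at 21.4 ± 1.16 lay above DUSP4 at 12.9 ± 5.04 without overlap, and DUSP6 had moved to the fourth place at 5.94 ± 1.28 CPM per kb, overlapping DUSP7.

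**Figure D1:**
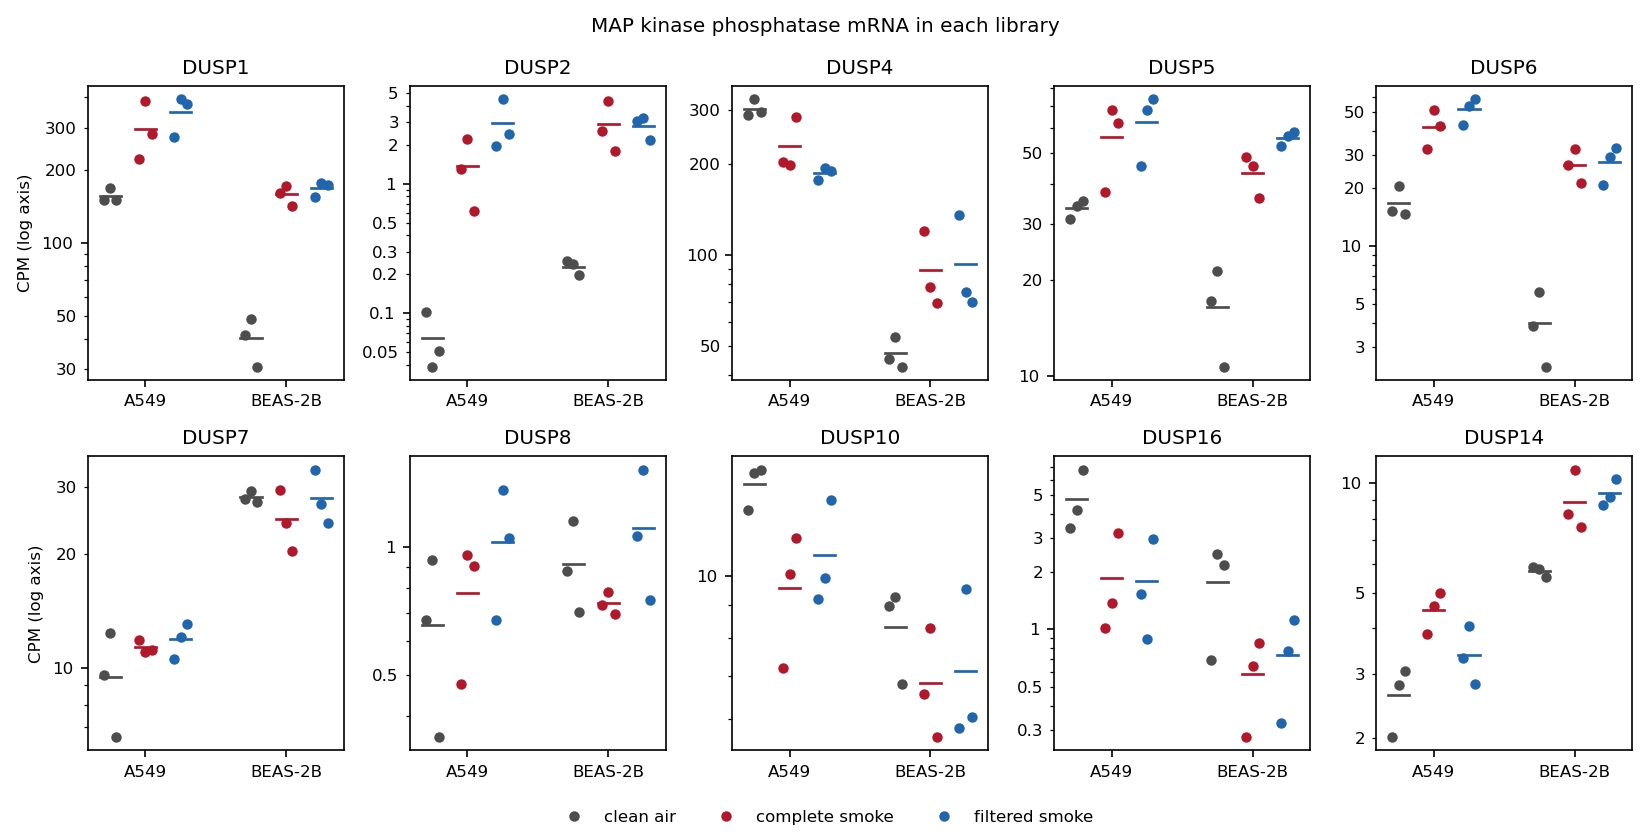
Level of each of the 10 phosphatase mRNAs in CPM on a log axis, 1 panel per gene, with 1 point per library and a line at each group mean, for A549 and BEAS-2B cells under clean air (grey), complete smoke (red) and filtered smoke (blue). DUSP1, DUSP2, DUSP5 and DUSP6 lie above clean air in all 12 exposed libraries, while DUSP4 lies below it in A549 cells and above it in BEAS-2B cells.

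Wood smoke raised the mRNA of several members in both lines. DUSP2 and DUSP6 rose under both aerosols in both lines, with DUSP1 and DUSP5, and DUSP6 reached 2.49 and 3.08 times its clean air level in A549 cells and 6.71 and 6.87 times in BEAS-2B cells under complete and filtered smoke. In A549 cells 5 members rose and none fell under complete smoke, and 4 rose and 2 fell under filtered smoke. The replicate number was taken to pair the A549 samples. With it as a block 5 rose and 3 fell under complete smoke (DUSP4, DUSP10 and DUSP16), and DUSP10 passed under filtered smoke as well. In BEAS-2B cells 6 rose and none fell under either aerosol. Of all genes tested in A549 cells 15.6% were higher and 16.9% lower under complete smoke, 32.5% in all, and 23.1% higher and 23.5% lower under filtered smoke, 46.7% in all. In BEAS-2B cells the shares were 21.5% higher and 19.5% lower (41.0% in all) under complete smoke and 23.6% higher and 24.9% lower (48.6% in all) under filtered smoke.

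The groups did not overlap for 8 members in A549 cells under complete smoke, against 52.1% of all genes, and for 6 members under filtered smoke, against 57.4%. In BEAS-2B cells 6 members were clear of clean air under each aerosol, against 48.3% and 61.1% of all genes. The median log2 difference over the members was 0.51 and 0.51 in A549 cells and 0.78 and 0.84 in BEAS-2B cells, in the order complete, filtered, while over all genes tested it was 0.02, 0.01, -0.06 and -0.07. Both aerosols of a line were compared with the same clean air libraries, so the counts of a line are not separate evidence. Under scaling by library size alone the median of all genes moved to -0.75 and -0.74 in BEAS-2B cells and to -0.10 and -0.15 in A549 cells, and the members then split into 4 higher and 4 lower (complete) and 4 higher and 3 lower (filtered) in BEAS-2B cells, and 3 higher and 1 lower and 4 higher and 2 lower in A549 cells. The TMM factors that separate these scalings were 1.14 to 1.52 in the clean air libraries of BEAS-2B cells and 0.718 to 0.9997 in the exposed ones.

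**Figure D2:**
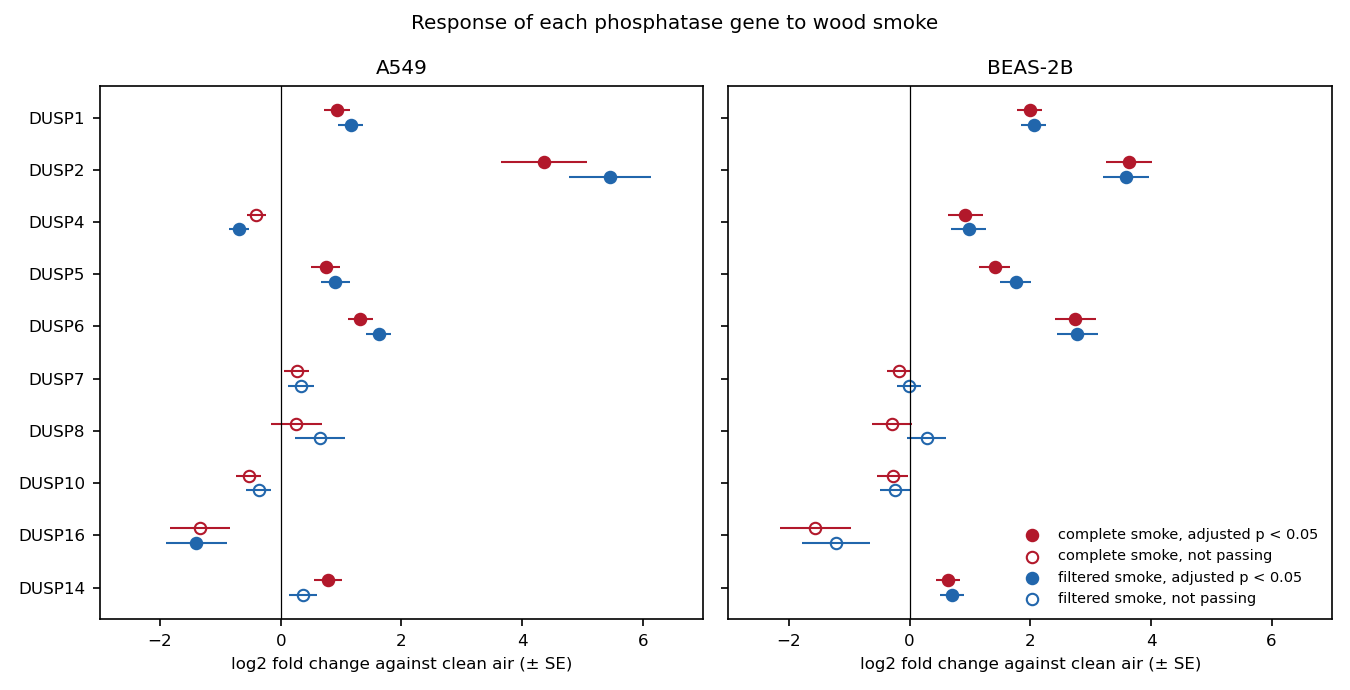
Log2 fold change of each phosphatase mRNA against clean air (x axis; bars are SE, n = 3 per group) in A549 (left) and BEAS-2B cells (right) under complete (red) and filtered smoke (blue). Filled points passed an edgeR adjusted p of 0.05; DUSP2 and DUSP6 lie at the right in every comparison, from 1.32 for DUSP6 in A549 cells under complete smoke to 5.45 for DUSP2 in A549 cells under filtered smoke.

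Among the nuclear inducible members, DUSP1 (ENSG00000120129, chr5:172768090-172771195, minus strand) is the immediate early gene whose protein inactivates p38, JNK and ERK. It stood at 151, 168 and 150 CPM in the clean air libraries of A549 cells, at 224, 386 and 282 CPM under complete smoke and at 276, 393 and 375 CPM under filtered smoke. BEAS-2B libraries held 41.5, 48.7 and 30.8 CPM in clean air, at 162, 172 and 143 CPM under complete smoke and at 155, 177 and 174 CPM under filtered smoke. Every exposed library of a line was above every clean air library of that line, and the exposed BEAS-2B values overlapped those of clean air A549 cells. DUSP1 rose by a log2 difference of 0.93 ± 0.21 under complete smoke in A549 cells (SE; edgeR adjusted p = 0.012) and by 1.16 ± 0.21 under filtered smoke (edgeR adjusted p = 0.00332). In BEAS-2B cells it rose by 1.99 ± 0.21 and 2.06 ± 0.21 (edgeR adjusted p = 0.00139 and 0.00179). Without the second complete smoke library the A549 call under complete smoke was lost, at 0.71 with an edgeR adjusted p of 0.0531. With the replicate number as a block that difference was 0.90 over all libraries (edgeR adjusted p = 0.000246).

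DUSP2 (ENSG00000158050, chr2:96143166-96145440, minus strand), a nuclear phosphatase best known from immune cells, was the least abundant member in clean air. It stood at 0.103, 0.0389 and 0.0509 CPM in clean air A549 libraries, 4 counts in all, at 1.31, 2.20 and 0.617 CPM under complete smoke and at 1.96, 4.48 and 2.41 CPM under filtered smoke. In BEAS-2B cells it stood at 0.252, 0.241 and 0.197 CPM in clean air, 24 counts in all, at 2.56, 4.31 and 1.80 CPM under complete smoke and at 3.06, 3.20 and 2.17 CPM under filtered smoke. No exposed library came near a clean air library. On counts pooled over 3 libraries, the ratio to clean air in A549 cells was 23.0 (exact 95% interval 8.67 to 86.2, counting error only) under complete smoke and 49.2 (18.9 to 183) under filtered smoke, and in BEAS-2B cells 12.6 (8.26 to 20.0) and 12.2 (8.03 to 19.3). The fitted log2 differences were 4.36 ± 0.72 and 5.45 ± 0.68 in A549 cells (edgeR adjusted p = 0.00365 and 0.000888) and 3.64 ± 0.39 and 3.58 ± 0.38 in BEAS-2B cells (edgeR adjusted p = 0.00152 and 0.00187). With 1 or 2 counts per clean air library in A549 cells the depth sets the size of that difference only within the interval given.

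DUSP4 was the member whose direction depended on the line. In A549 cells it stood at 203, 198 and 284 CPM under complete smoke and at 177, 194 and 189 CPM under filtered smoke, all below the lowest clean air library at 289 CPM. In BEAS-2B cells it stood at 120, 78.1 and 69.3 CPM under complete smoke and at 136, 75.3 and 69.7 CPM under filtered smoke, all above the highest clean air library at 53.6 CPM. The first library of each exposed BEAS-2B group was well above the other two. DUSP4 fell by 0.70 ± 0.16 on the log2 scale under filtered smoke in A549 cells (SE; edgeR adjusted p = 0.00845), and the difference under complete smoke was -0.40 ± 0.16 (edgeR adjusted p = 0.0784; 0.0185 with the replicate number as a block). It rose by 0.92 ± 0.29 and 0.98 ± 0.29 in BEAS-2B cells (edgeR adjusted p = 0.0317 and 0.0229). Without the first exposed library the BEAS-2B values were 0.65 (adjusted p = 0.132) and 0.61 (0.0904), and they were not called without clean air library 2 or 3 either (0.0587 to 0.108), nor under complete smoke without its second library (0.0557). Scaled by library size alone they were 0.20 and 0.26 (edgeR adjusted p = 0.457 and 0.335).

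DUSP5 (ENSG00000138166, chr10:110497838-110511544, plus strand) is a nuclear phosphatase specific for ERK. It stood at 31.1, 34.2 and 35.5 CPM in clean air A549 libraries, at 37.7, 68.4 and 62.1 CPM under complete smoke and at 45.4, 68.4 and 73.7 CPM under filtered smoke. BEAS-2B libraries held 17.2, 21.4 and 10.7 CPM in clean air, at 48.7, 45.5 and 36.3 CPM under complete smoke and at 52.5, 56.7 and 58.3 CPM under filtered smoke. The exposed groups lay above clean air without overlap in both lines, though the first exposed A549 library of each aerosol lay close to it. DUSP5 rose by 0.75 ± 0.24 and 0.90 ± 0.24 in A549 cells (edgeR adjusted p = 0.0397 and 0.0141) and by 1.41 ± 0.25 and 1.76 ± 0.25 in BEAS-2B cells (edgeR adjusted p = 0.00459 and 0.0028). The A549 call under complete smoke was lost without any single library except the first complete smoke library (adjusted p from 0.0646 to 0.149). Without that library it held (0.0232). The call was also lost with library size alone (0.0855) and with all 18 libraries in 1 fit (0.0612). Under filtered smoke the A549 call was lost without the first clean air library (0.0533) or the second filtered smoke library (0.0521). With the replicate number as a block the A549 differences were 0.70 and 0.87 (edgeR adjusted p = 0.00154 and 0.000252).

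Of the cytoplasmic phosphatases of ERK, DUSP6 (ENSG00000139318, chr12:89347232-89353271, minus strand) is a transcriptional target of ERK signalling itself. It stood at 15.2, 20.7 and 14.7 CPM in clean air A549 libraries, at 32.0, 51.4 and 42.2 CPM under complete smoke and at 43.0, 53.8 and 58.1 CPM under filtered smoke. BEAS-2B libraries held 3.84, 5.78 and 2.36 CPM in clean air, at 26.4, 32.2 and 21.2 CPM under complete smoke and at 20.9, 29.2 and 32.4 CPM under filtered smoke. The groups were far apart in both lines, and the BEAS-2B libraries under smoke lay above all clean air A549 libraries. DUSP6 rose by 1.32 ± 0.21 and 1.62 ± 0.21 in A549 cells (SE; edgeR adjusted p = 0.00329 and 0.00109) and by 2.75 ± 0.34 and 2.78 ± 0.34 in BEAS-2B cells (edgeR adjusted p = 0.00183 and 0.00217). Those calls held without any single library (adjusted p up to 0.0225 in A549 cells under complete smoke).

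DUSP7 (ENSG00000164086, chr3:52048919-52056550, minus strand), which shares the substrate and location of DUSP6, ranged from 6.57 to 13.1 CPM over the 9 A549 libraries and from 20.3 to 33.4 CPM over the 9 BEAS-2B libraries. The exposed values overlapped clean air in both lines. Its log2 differences were 0.26 ± 0.21 and 0.34 ± 0.21 in A549 cells (edgeR adjusted p = 0.337 and 0.204) and -0.18 ± 0.19 and -0.01 ± 0.19 in BEAS-2B cells (edgeR adjusted p = 0.453 and 0.974). With library size alone the BEAS-2B values became -0.89 and -0.70 (edgeR adjusted p = 0.00563 and 0.0117).

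Among the phosphatases directed at JNK and p38, DUSP16 (ENSG00000111266, chr12:12474210-12562383, minus strand) had lower values after smoke. It stood at 3.36, 4.16 and 6.78 CPM in clean air A549 libraries, at 1.01, 1.37 and 3.18 CPM under complete smoke and at 1.53, 0.895 and 2.96 CPM under filtered smoke. In BEAS-2B cells it stood at 0.692, 2.46 and 2.17 CPM in clean air, at 0.275, 0.642 and 0.844 CPM under complete smoke and at 0.327, 0.774 and 1.11 CPM under filtered smoke. The A549 groups did not overlap, while in BEAS-2B cells the first clean air library lay inside the exposed range. DUSP16 fell by 1.40 ± 0.50 on the log2 scale in A549 cells under filtered smoke (SE; edgeR adjusted p = 0.0426), and the other differences were -1.34 ± 0.50 in A549 cells under complete smoke (adjusted p = 0.061), -1.56 ± 0.59 in BEAS-2B cells under complete smoke (0.0575) and -1.22 ± 0.57 under filtered smoke (0.099). Under complete smoke DUSP16 passed with other settings: by DESeq2 (adjusted p = 0.0286 in either line), with no low-count filter (0.000134 in A549 and 0.0293 in BEAS-2B cells), with only the compared libraries in A549 cells (0.0281) and with all 18 libraries in 1 fit in BEAS-2B cells (0.0337). It also passed in A549 cells without complete smoke library 3 (0.0124), and in BEAS-2B cells without clean air library 1 (0.0187, and 0.0314 under filtered smoke), without complete smoke library 3 (0.0334), without library 3 of both aerosols (0.0382) and with library size alone (0.0295, and 0.0425 under filtered smoke). Library 3 of each A549 group was its highest, and with the replicate number as a block the A549 differences were -1.41 and -1.47 (edgeR adjusted p = 0.000494 and 0.000243). The A549 call under filtered smoke without the block was lost in 5 of 6 removals, those of any clean air library and of the first or second filtered smoke library, with adjusted p of 0.0526 to 0.157, and also with upper-quartile scaling (0.054) and with all 18 libraries in 1 fit (0.0648).

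DUSP10 (ENSG00000143507, chr1:221701424-221742176, minus strand) stood at 12.7, 14.5 and 14.6 CPM in clean air A549 libraries, at 7.20, 10.1 and 11.4 CPM under complete smoke and at 9.20, 9.94 and 13.1 CPM under filtered smoke. Only the complete smoke group was clear of clean air in that line. The differences were -0.53 ± 0.21 and -0.36 ± 0.21 in A549 cells (edgeR adjusted p = 0.0707 and 0.167), and with the replicate number as a block -0.55 and -0.38 (edgeR adjusted p = 0.00637 and 0.0339). In BEAS-2B cells DUSP10 ranged from 6.78 to 9.26 CPM in clean air and from 5.62 to 9.54 CPM after smoke, with overlap. The differences there were -0.28 ± 0.26 and -0.23 ± 0.26 (edgeR adjusted p = 0.397 and 0.469). With library size alone they became -0.96 and -0.89 (edgeR adjusted p = 0.0243 and 0.0282).

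DUSP8 (ENSG00000184545, chr11:1554044-1571920, minus strand) was low throughout, from 0.357 to 1.37 CPM in A549 libraries and from 0.698 to 1.52 CPM in BEAS-2B libraries, and its groups overlapped everywhere. No difference passed with TMM factors (0.26 ± 0.42 and 0.65 ± 0.41 in A549 cells, -0.29 ± 0.33 and 0.28 ± 0.32 in BEAS-2B cells). The edgeR adjusted p-values were 0.651, 0.212, 0.494 and 0.478. With library size alone the BEAS-2B values became -0.98 and -0.40 (edgeR adjusted p = 0.0427 and 0.333). With 44 to 61 pooled counts per A549 group and 65 to 114 per BEAS-2B group, the exact 95% intervals of the ratio to clean air ran from 0.776 to 1.82 and 1.04 to 2.35 in A549 cells and from 0.578 to 1.11 and 0.934 to 1.64 in BEAS-2B cells, all for counting error only. The interval of A549 cells under filtered smoke excluded 1, while its libraries overlapped clean air. In the other 3 comparisons a change within the interval was not detectable at this depth.

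The small member DUSP14 (ENSG00000276023, chr17:37489831-37513501, plus strand) stood at 2.02, 2.80 and 3.06 CPM in clean air A549 libraries, at 3.87, 4.62 and 4.99 CPM under complete smoke and at 3.31, 4.05 and 2.81 CPM under filtered smoke. In BEAS-2B cells it stood at 5.89, 5.81 and 5.54 CPM in clean air, at 8.21, 10.9 and 7.60 CPM under complete smoke and at 8.70, 9.16 and 10.3 CPM under filtered smoke. Only the filtered smoke group of A549 cells overlapped its clean air group. DUSP14 rose by 0.78 ± 0.23 in A549 cells under complete smoke (edgeR adjusted p = 0.0293), the filtered difference was 0.37 ± 0.23 (adjusted p = 0.209), and in BEAS-2B cells it rose by 0.64 ± 0.20 and 0.70 ± 0.20 (edgeR adjusted p = 0.031 and 0.0201). These calls were fragile. The A549 call under complete smoke was lost without any single library except clean air library 3 (edgeR adjusted p up to 0.101). With the replicate number as a block the A549 difference under complete smoke was 0.78 (edgeR adjusted p = 0.00612). In BEAS-2B cells the calls were lost in 4 of 6 removals under each aerosol (edgeR adjusted p up to 0.116). These were clean air library 2 or 3 under either aerosol, complete smoke library 1 or 2, or filtered smoke library 2 or 3. By library size alone the BEAS-2B values were -0.04 and 0.04.

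Summed over the 10 members, A549 libraries held 515, 584 and 528 CPM in clean air, 522, 734 and 703 CPM under complete smoke and 568, 741 and 731 CPM under filtered smoke. BEAS-2B libraries held 153, 178 and 130 CPM in clean air, 404, 377 and 306 CPM under complete smoke and 417, 389 and 379 CPM under filtered smoke. The exposed BEAS-2B libraries were all above their clean air libraries, while in A549 cells the first complete smoke and the first filtered smoke library lay within the clean air range.

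Complete and filtered smoke were also compared with each other, which asks what filtering the smoke changed. None of the 10 members passed in either line (edgeR, adjusted p of 0.998 in A549 and 1 in BEAS-2B cells), and of all genes 0 passed in A549 and 0 in BEAS-2B cells, with 236 and 222 genes at an unadjusted p under 0.05, and 3 and 0 by DESeq2. Of the members, 1 in A549 cells and none in BEAS-2B cells had an unadjusted p under 0.05. The differences of the members, complete minus filtered, ranged from -1.09 to 0.41 in A549 cells and from -0.57 to 0.05 in BEAS-2B cells. The lowest in A549 cells was DUSP2 at -1.09 ± 0.44, and on pooled counts its ratio was 0.467 (exact 95% interval 0.357 to 0.606, counting error only), with overlapping libraries. DUSP5 in BEAS-2B cells, at -0.35 ± 0.25, was the member of that line whose complete and filtered libraries did not overlap, and DUSP4 that of A549 cells, against 4.87% and 4.11% of all genes. A p that misses the threshold does not show that the aerosols acted alike.

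The responses of the lines were compared by the difference of their log2 changes, BEAS-2B minus A549, in 1 fit of all 18 libraries. Under filtered smoke DUSP4 differed by 1.69 ± 0.35 (SE; edgeR adjusted p = 0.035), falling in A549 and rising in BEAS-2B cells, and 0.825% of all genes passed in this comparison, 0.311% in this direction. Under complete smoke no member passed, against 1.74% of all genes, with 3 members and 3070 genes at an unadjusted p under 0.05 in edgeR and 3 members (DUSP1, DUSP4 and DUSP6) called by DESeq2. The values under complete smoke were 1.32 ± 0.35 for DUSP4 (edgeR adjusted p = 0.0687), 1.42 ± 0.40 for DUSP6 (0.0858) and 1.05 ± 0.30 for DUSP1 (0.0871), and under filtered smoke DUSP6 had 1.17 ± 0.40 (0.19) and DUSP1 0.91 ± 0.30 (0.172). The DUSP4 call under filtered smoke was lost in 10 of 12 removals of a single library (adjusted p from 0.051 to 0.105), all except those of BEAS-2B clean air library 1 and BEAS-2B filtered smoke library 3.

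**Figure D3:**
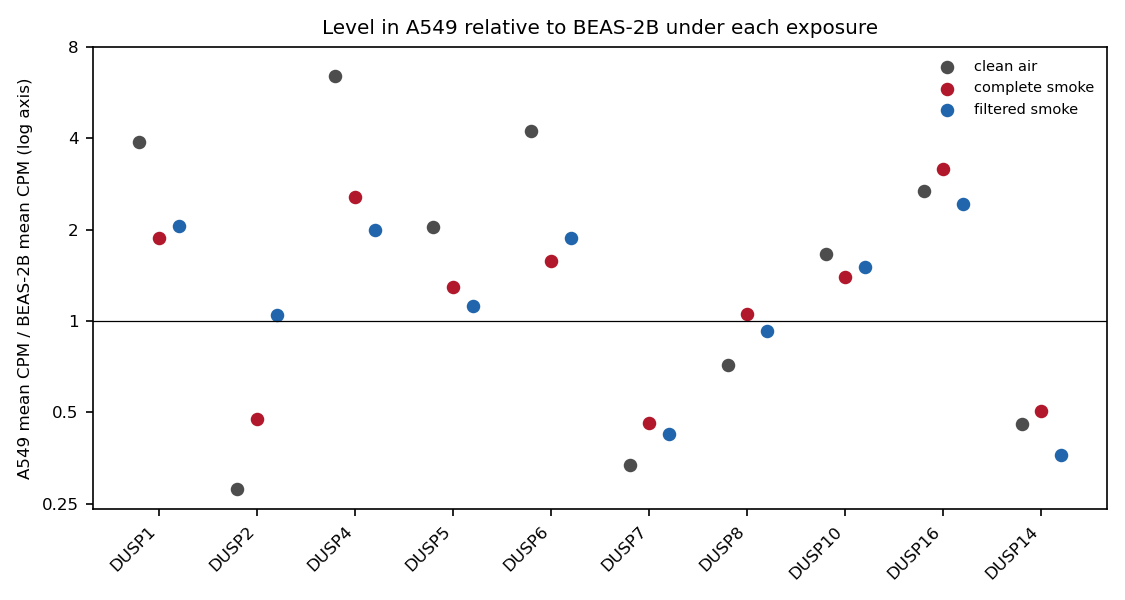
Mean CPM in A549 cells divided by mean CPM in BEAS-2B cells (log axis) for each phosphatase gene under clean air (grey), complete smoke (red) and filtered smoke (blue). For DUSP4 the ratio went from 6.42 in clean air to 2.57 and 1.99 under complete and filtered smoke, for DUSP1 from 3.88 to 1.87 and 2.06, and for DUSP6 from 4.22 to 1.57 and 1.88.

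The plot of the ratio between lines gives these levels side by side. Of the changes in ratio only that of DUSP4 under filtered smoke passed the edgeR test of the line difference without a block. With the replicate number as a block in both lines, DUSP1, DUSP4 and DUSP6 were among the 4 members passing. Their edgeR adjusted p was 0.00151, 0.00177 and 0.00253 under complete smoke, and 0.00541, 0.000529 and 0.0111 under filtered smoke. The BEAS-2B numbers in this block were not taken as pairs. For DUSP5 the ratio of A549 to BEAS-2B means was 2.04 in clean air, 1.29 under complete smoke and 1.12 under filtered smoke. DUSP7 and DUSP14, higher in BEAS-2B cells, had ratios of 0.336 and 0.457 in clean air, 0.459 and 0.505 under complete smoke and 0.423 and 0.362 under filtered smoke. DUSP16 kept ratios of 2.69, 3.16 and 2.44 in the order clean air, complete and filtered. The ratios use the same clean air means as the comparisons above.

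The rest of the pathway gives the setting of these genes. Of the list of 11 genes that ERK signalling is known to turn on, other than phosphatases, 5 rose and 1 fell in A549 cells under complete smoke and 4 rose and 3 fell under filtered smoke, and of the 10 tested in BEAS-2B cells 6 and 7 rose and none fell. Their median log2 differences were 0.44, 0.18, 1.14 and 1.04, in the order A549 complete, A549 filtered, BEAS-2B complete and BEAS-2B filtered. Of all genes tested 15.6%, 23.1%, 21.5% and 23.6% were higher and 16.9%, 23.5%, 19.5% and 24.9% lower in that order. FOSL1, an AP-1 subunit, rose by 1.79 ± 0.27, 1.43 ± 0.27, 1.61 ± 0.33 and 1.66 ± 0.33 in that order (edgeR adjusted p from 0.00283 to 0.00722). SPRY4, a feedback inhibitor of receptor tyrosine kinase signalling, rose by 1.28 ± 0.29, 1.09 ± 0.29, 2.22 ± 0.34 and 2.47 ± 0.35 (edgeR adjusted p from 0.00257 to 0.013; 0.0501 under filtered smoke in A549 cells without clean air library 3). IER3, an early response gene, rose by 1.46 ± 0.28, 1.51 ± 0.28, 2.23 ± 0.29 and 2.68 ± 0.30 (edgeR adjusted p from 0.00191 to 0.00716). EPHA4, an ephrin receptor of the same list, fell by 1.52 ± 0.28 and 1.55 ± 0.28 in A549 cells (edgeR adjusted p = 0.00552 and 0.00321).

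In clean air 9 of 11 genes of the ERK-regulated list were lower in BEAS-2B cells and none higher, beside 28.0% lower and 27.3% higher of all genes, and their median was -1.54 beside 0.01 over all genes. CCND1, the cyclin that starts the cell cycle downstream of ERK, was at 246 ± 62.0 CPM in A549 and 12.9 ± 2.07 CPM in BEAS-2B cells (log2 difference -4.25 ± 0.27, edgeR adjusted p = 1.19e-09). SPRY4 differed by -3.59 ± 0.35 and the ETS factor ETV5 by -3.42 ± 0.21 (edgeR adjusted p = 1.57e-07 and 6.3e-10). Of the 10 genes of the Sprouty and SPRED list of pathway inhibitors, which shares SPRY2 and SPRY4 with it, 8 were lower in BEAS-2B cells and none higher. With 1 library left out, 7 to 8 genes of the first list and 5 to 7 of the second passed.

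**Figure D4:**
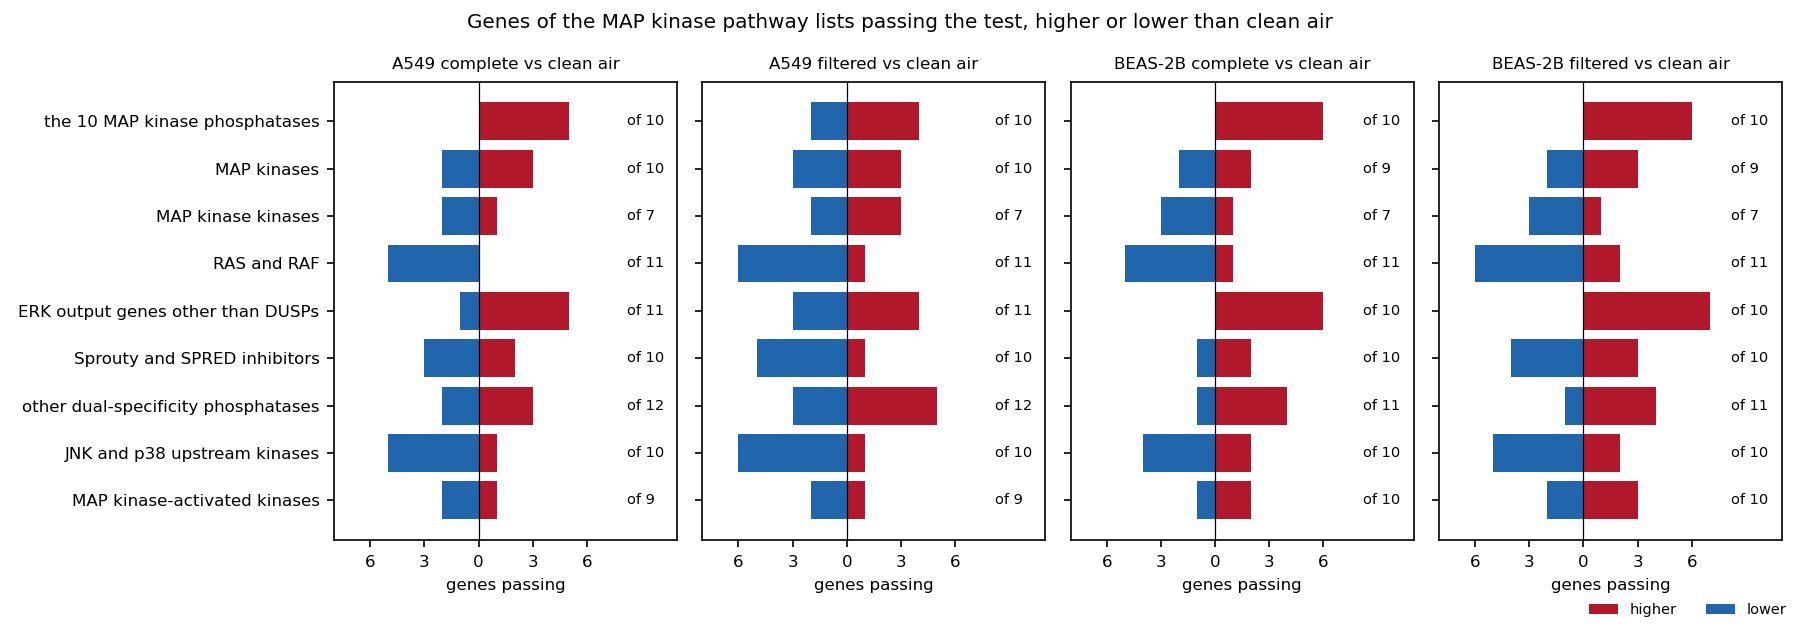
Number of genes that passed the edgeR test against clean air in each list of MAP kinase pathway genes, higher (red, right) or lower (blue, left), in the 4 comparisons, with the number tested at the right. The 10 phosphatases have 5, 4, 6 and 6 higher, and the RAS and RAF list has 5, 6, 5 and 6 lower.

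Upstream of the phosphatases the kinases went both ways. The counts of the lists below stand beside 15.6%, 23.1%, 21.5% and 23.6% of all genes higher and 16.9%, 23.5%, 19.5% and 24.9% lower, in the order A549 complete, A549 filtered, BEAS-2B complete and BEAS-2B filtered, and they moved when 1 library was left out. Under complete smoke the genes passing then ranged from 1 to 7 in A549 and 1 to 9 in BEAS-2B cells for the RAS and RAF list, from 1 to 6 and 2 to 7 for the MAP kinases, and from 2 to 7 and 3 to 8 for the JNK and p38 upstream kinases. In A549 cells they ranged from 1 to 4 for the MAP kinase kinases, 0 to 4 for the MAP kinase-activated kinases, 2 to 7 for the Sprouty and SPRED list and 1 to 6 for the other dual-specificity phosphatases. Among the MAP kinases MAPK3, which encodes ERK1, rose by 0.99 ± 0.20 and 1.20 ± 0.20 in A549 cells and by 1.64 ± 0.27 and 1.76 ± 0.27 in BEAS-2B cells (edgeR adjusted p from 0.00268 to 0.00878). MAPK14, which encodes p38 alpha, fell by 0.78 ± 0.18, 0.91 ± 0.18, 1.14 ± 0.17 and 1.18 ± 0.17 on the log2 scale in the same order (edgeR adjusted p from 0.00276 to 0.0123; in A549 cells 0.0524 and 0.0555 without complete smoke library 1 or 2). Of the list of MAP kinases, 3 of 10 rose and 2 fell in A549 cells under complete smoke, 3 rose and 3 fell under filtered smoke, and of 9 tested in BEAS-2B cells 2 rose and 2 fell, then 3 rose and 2 fell. In the list of RAS, RAF and their adaptors 5, 6, 5 and 6 of 11 fell and 0, 1, 1 and 2 rose. KSR1, the scaffold that brings RAF to its substrate, fell by 1.51 ± 0.16 and 1.37 ± 0.16 in A549 cells under complete and filtered smoke (edgeR adjusted p = 0.00101 and 0.000735). The list of JNK and p38 upstream kinases had 5, 6, 4 and 5 of 10 lower and 1, 1, 2 and 2 higher, with medians of -0.61, -0.68, -0.67 and -0.80. MAP kinase-activated kinases had 1, 1, 2 and 3 higher and 2, 2, 1 and 2 lower, of 9 tested in A549 and 10 in BEAS-2B cells.

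The MAP kinase kinases, which phosphorylate what these phosphatases dephosphorylate, had 1, 3, 1 and 1 of 7 higher and 2, 2, 3 and 3 lower. MAP2K4, a kinase kinase of JNK and p38, stood at 59.9, 64.8 and 61.0 CPM in clean air A549 libraries, at 32.2, 32.4 and 30.8 CPM under complete smoke and at 31.9, 31.5 and 29.6 CPM under filtered smoke, with no overlap. It fell by 0.95 ± 0.12 and 0.99 ± 0.12 in A549 cells and by 1.07 ± 0.20 and 1.14 ± 0.20 in BEAS-2B cells on the log2 scale (edgeR adjusted p from 0.000848 to 0.00487). MAP2K6, which activates p38, stood at 2.83, 4.04 and 4.42 CPM in clean air BEAS-2B libraries, at 0.214, 0.285 and 0.367 CPM under complete smoke (25 counts in all) and at 0.204, 0.325 and 0.389 CPM under filtered smoke (32 counts). It fell by 3.67 ± 0.34 and 3.57 ± 0.33 there (edgeR adjusted p = 0.00124 and 0.00161), and in A549 cells by 0.76 ± 0.18 and 0.72 ± 0.18 (edgeR adjusted p = 0.0131 and 0.00979). The A549 call under complete smoke was lost without complete smoke library 2 (0.0569) or clean air library 3 (0.0526).

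The other dual-specificity phosphatases, of which 12 of 17 could be tested in A549 and 11 in BEAS-2B cells, had 3, 5, 4 and 4 higher and 2, 3, 1 and 1 lower. DUSP23, a small phosphatase without a MAP kinase docking domain, rose by 1.43 ± 0.33, 1.80 ± 0.33, 3.11 ± 0.58 and 3.33 ± 0.58 (edgeR adjusted p from 0.00359 to 0.0132). In each exposed group library 3 was the lowest, for example 101, 65.6 and 31.1 CPM in BEAS-2B cells under complete smoke. STYXL1, a catalytically inactive relative, rose by 0.90 ± 0.22, 1.12 ± 0.23, 1.68 ± 0.28 and 1.61 ± 0.28 (edgeR adjusted p from 0.00355 to 0.0168). DUSP19, a phosphatase of the JNK pathway, fell by 1.14 ± 0.27, 1.73 ± 0.29, 1.45 ± 0.30 and 1.42 ± 0.30 on the log2 scale (edgeR adjusted p from 0.00231 to 0.0139). None of the 3 tyrosine phosphatases of MAP kinases passed the low-count filter in either line. In A549 cells under complete smoke the call of DUSP23 was lost without clean air library 1 or complete smoke library 2 (up to 0.057), that of STYXL1 without clean air library 1 or 3 or complete smoke library 1 or 2 (up to 0.0745), and that of DUSP19 without clean air library 2 (0.0505). The Sprouty and SPRED inhibitors had 2, 1, 2 and 3 of 10 higher, SPRY4 among them each time, and 3, 5, 1 and 4 lower.

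The genes with the pattern nearest to a member were named for 1 member of each of 3 role groups, by the root mean square difference over the 9 libraries of a line of log2 CPM minus the gene's own clean air mean. Genes other than the members with a mean of at least 5 CPM were eligible, 10244 in A549 and 9934 in BEAS-2B cells. In A549 cells the nearest to DUSP1 included GAS5 (0.15) and SGK1 (0.18), against a median of 0.89 over all eligible genes. The nearest to DUSP6 were CHCHD7 (0.13), PIM2 (0.18) and MAP1LC3A (0.19), against 1.24, and to DUSP10 CCDC66 (0.11), RNF170 (0.12) and FYB1 (0.12), against 0.61. In BEAS-2B cells the nearest to DUSP1 were FAM216A (0.20), METTL5 (0.21) and MAFF (0.22), against 1.70. The nearest to DUSP6 were IL1B (0.34), IER2 (0.34) and JUNB (0.34), against 2.34, and to DUSP10 TBP (0.15), NOLC1 (0.17) and ATP6V1H (0.17), against 0.76. No gene was named for the same member in both lines.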

How the data were processed

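Gene counts were deposited by the authors, who used STAR 2.7.10b and GRCh38, per the submitters' processing notes; the annotation release is not given in the sources used here. Of the 3 count columns the one for a single strand was used, which exceeded the opposite strand by 11.7 to 17.1 times in every library. The 4 summary lines were left out. Of 62649 identifiers 62625 had a symbol. Member positions and exon lengths are GENCODE's on GRCh38.

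In R 4.3.3, the 9 libraries of a line were fitted by edgeR 4.0.16 (filterByExpr, TMM, robust quasi-likelihood), with p-values adjusted over all genes tested. Comparisons of the lines used all 18 libraries. The SE of a log2 difference is its absolute value divided by the square root of the edgeR F statistic. It rests on a dispersion estimated over all libraries of the fit. Adjusted p-values are from edgeR unless DESeq2 1.42.0 is named. The fits were run on simulated counts in which a small set of well-counted genes was changed. That setting does not cover members with few counts or the wide spread of TMM factors in BEAS-2B cells. CPM values use TMM factors of all 18 libraries.

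Named genes are the 10 members, a selection from up to 4 passing genes of largest change per pathway list and comparison, the marker genes, and the 3 nearest patterns of DUSP1, DUSP6 and DUSP10. One gene that this rule names is not reported here. Members and lists were chosen with earlier results of these data known, so no list is independent evidence.

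The labels number samples 1 to 3. Deviations from the group means correlated above 0.1 in 9 of 9 same-numbered A549 pairs (0.220 to 0.798). The numbers were taken as pairs there, from the data and not the labels. In BEAS-2B cells 8 of 9 such pairs did (range -0.134 to 0.666), and the numbers were not taken as pairs. Differently numbered pairs ran from -0.677 to 0.3405 in A549 and from -0.6665 to 0.4764 in BEAS-2B cells. These ranges overlap those of same-numbered pairs, so the pairing is uncertain in both lines. The main fits did not use it. Alternatives were other scalings (DESeq2 size factors, upper quartile, library size alone), no filter or at least 1 CPM, the DESeq2 Wald test, strand ignored, the replicate number as a block, other sets of libraries in the fit, and each library left out. Leaving out BEAS-2B complete smoke 3 and filtered smoke 3 was chosen after seeing the data.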

Additional observations from a re-analysis of the deposited data

Results flagged for a closer look

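A difference between the lines in the response to smoke passed the edgeR interaction test for 1 member and 3 pathway genes. DUSP4 differed by 1.69 under filtered smoke (BEAS-2B minus A549, log2; edgeR adjusted p = 0.035), with lower values than clean air in 3 of 3 exposed A549 libraries and higher values in 3 of 3 exposed BEAS-2B libraries. MAP2K6, the p38 kinase kinase, differed by -2.94 under complete smoke and by -2.84 under filtered smoke (edgeR adjusted p = 0.0013 and 0.00103). It fell in both lines and further in BEAS-2B cells, where its clean air mean was 3.76 ± 0.829 CPM against 63.9 ± 10.5 CPM in A549 cells. ETV5 differed by 1.27 under filtered smoke (edgeR adjusted p = 0.0392), from 30.4 ± 1.73 to 19.8 ± 4.83 CPM in A549 cells and from 2.83 ± 0.520 to 4.45 ± 0.547 CPM in BEAS-2B cells (SD, n = 3). DUSP3, an atypical dual-specificity phosphatase that acts on ERK and JNK, differed by 0.993 under filtered smoke (edgeR adjusted p = 0.0486), from 143 ± 8.40 to 122 ± 14.03 CPM in A549 cells and from 42.9 ± 1.56 to 72.5 ± 5.90 CPM in BEAS-2B cells. The DUSP3 call was lost with upper-quartile scaling, library size alone, no low-count filter and counts that ignore strand, and in all 12 removals of a single library. That of ETV5 was lost with library size alone, with no low-count filter and in 11 of 12 such removals (all except A549 filtered smoke library 3). The groups hold 3 libraries each, which is too few to look for a library far from the others.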

How the results depend on the processing

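With the replicate number as a block, 8 members passed in A549 cells under complete smoke, 5 higher and 3 lower (5 higher without it), and 4 and 4 members differed between lines under complete and filtered smoke (0 and 1 without it). Genes passing under the block were 8321 and 10315 under complete smoke in A549 and BEAS-2B cells, 1 for complete against filtered smoke in A549 cells, and 3541 and 2742 for the line differences (4951, 6704, 0, 308 and 146 without it). In BEAS-2B cells, where the numbers were not taken as pairs, DUSP16 had adjusted p of 0.000852 and 0.0022 under the block. For the line differences under complete and filtered smoke, genes passing were 1571 and 822 with library size alone (45 and 28 higher, against 100 and 55), 797 and 450 with no filter, 196 and 94 with the stricter filter and 900 and 645 by DESeq2. Members passing under complete smoke were 2 and 3 with no filter and DESeq2, all higher in the difference, and 1 with library size alone, which was lower. Complete against filtered smoke in A549 cells gave 19 genes with no filter and 3 by DESeq2. All 18 libraries in 1 fit gave 2574 genes in A549 cells under complete smoke, and the stricter filter 5321 (9799) between lines in clean air, where it leaves out DUSP2, DUSP8 and DUSP16. With library size alone, genes higher and lower were 1586 and 2984, 2596 and 4253, 1531 and 6835, and 1663 and 7415 in A549 complete, A549 filtered, BEAS-2B complete and BEAS-2B filtered (2371 and 2580, 3524 and 3588, 3517 and 3187, and 3867 and 4080 with TMM).

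Leaving out 1 library gave 2 to 6 and 4 to 7 members in A549 cells and 4 to 7 and 4 to 7 in BEAS-2B cells (complete, filtered), 0 to 2 and 0 to 1 for the line differences and 6 to 8 between lines in clean air. Genes passing were 1422 to 6805 and 4006 to 9015 in A549 cells, 2916 to 9026 and 3652 to 9276 in BEAS-2B cells, 87 to 797 and 47 to 182 for the line differences, 8864 to 9350 in clean air, and 0 to 0 and 0 to 2 for complete against filtered smoke in A549 and BEAS-2B cells. In A549 cells the fewest genes came without complete smoke library 2 and filtered smoke library 2, and in BEAS-2B cells without clean air library 3. Without BEAS-2B complete smoke 3 and filtered smoke 3, 7 and 6 members passed.

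Reversed directions were all of values that did not pass, apart from DUSP14 in BEAS-2B cells under complete smoke, at -0.037 with library size alone. DUSP7 in BEAS-2B cells under filtered smoke (-0.01) became 0.0075 with DESeq2 size factors, 0.021 with upper-quartile scaling, 0.0067 by DESeq2, 0.044 with strand ignored, 0.083 without BEAS-2B complete smoke 3 and filtered smoke 3, and 0.036, 0.033 and 0.101 without clean air 1, filtered smoke 2 or filtered smoke 3 (range without 1 library -0.152 to 0.101). DUSP8 became -0.40 with library size alone and -0.0096 without filtered smoke 2 there (range -0.0096 to 0.515), and -0.014 in A549 cells under complete smoke without clean air 3 (range -0.014 to 0.618). The cause was not tested. DUSP2 and DUSP8 have the fewest counts, which limits the precision of their differences.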
